A study of Homo sapiens with 6 samples.

Results

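The tumour necrosis factor (TNF) superfamily was followed as 44 protein-coding human genes: TNF, LTA, LTB, FAS, FASLG, CD27, CD40, CD40LG, CD70, LTBR, NGFR and every gene whose symbol starts with TNFSF (ligands) or TNFRSF (receptors). An accessible site was assigned to one of these genes when it overlapped the RefSeq gene body or lay within 20000 bases of it, and each site went to the nearest member. This gave 373 of the 181135 sites in the authors' table, spread over 41 of the 44 genes. No site fell to TNF, TNFSF13 or TNFRSF11B. A site that overlapped several members went to the member whose start, or nearer end where no start was given, lay closest to the site's centre. By this rule a site that overlaps TNFSF13 (chr17:7560588-7562352) went to the read-through gene TNFSF12-TNFSF13. Of the 373 sites, 371 had enough reads to be tested.

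Accessibility was measured by ATAC-seq, which cuts and tags exposed DNA with a transposase, in wild-type K562 cells. K562 is an established human line grown from a chronic myelogenous leukaemia, and its cells carry early erythroid features. Cells received PMA at 25 nM, a phorbol ester and protein kinase C agonist that drives K562 towards a megakaryocyte-like state. There were 3 groups of 2 libraries each, taken at 0, 6 and 72 h of treatment. All groups share the same line and genotype, the labels name PMA for the 0 h cells too, and the medium was renewed during the longer treatment. The labels do not say whether the 2 libraries of a time came from separate cultures. The p-values below therefore measure the spread between these libraries, which may be technical. Only accessibility was measured here, not RNA or protein of any member, and in bulk libraries a larger share of cells with an open site cannot be told apart from a more open site in every cell.

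TNF superfamily ligands are mostly trimeric proteins held in the cell membrane, some of them released by proteases, and their receptors carry cysteine-rich repeats outside the cell. Receptors with a death domain, such as FAS and the TRAIL receptor TNFRSF10A, can start apoptosis through FADD and caspase 8. Most other receptors recruit TRAF adaptors and switch on NF-kB and JNK signalling, and decoy receptors bind ligand without signalling. The family is best known from lymphocytes and myeloid cells, where phorbol esters are a classical stimulus of several members.

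The upstream sequences of 4 members are shown because the site over each gene start took a different course after PMA. With the scaling of the main test, it was most open at 6 h at TNFRSF9 and TNFSF14. At FASLG it was raised at both 6 and 72 h, and at TNFSF9 it lost accessibility by 72 h. Each run is the 250 bases before the annotated start, 5' to 3' on the gene's strand, from the RefSeq promoter table of GRCh38.p14. Capitals mark matches, on either strand, to the letters of 5 motifs. The AP-1 motif was searched as TGANTCA, and the motif of RUNX factors as TGTGGT. For GATA factors the search used AGATAA, for EGR factors it used GCGTGGGCG, and for NF-kB it used 3 G, then 2 free positions, then 3 T and 2 C. The TNFRSF9 window lies at chr1:7940840-7941089 (minus strand), the TNFSF14 window at chr19:6670159-6670408 (minus strand), the FASLG window at chr1:172658853-172659102 (plus strand) and the TNFSF9 window at chr19:6530776-6531025 (plus strand).
TNFRSF9: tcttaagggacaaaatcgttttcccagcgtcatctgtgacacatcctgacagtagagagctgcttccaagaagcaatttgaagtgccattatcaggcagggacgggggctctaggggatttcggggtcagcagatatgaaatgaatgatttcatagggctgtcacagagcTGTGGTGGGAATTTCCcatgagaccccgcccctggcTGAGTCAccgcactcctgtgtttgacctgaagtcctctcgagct
TNFSF14: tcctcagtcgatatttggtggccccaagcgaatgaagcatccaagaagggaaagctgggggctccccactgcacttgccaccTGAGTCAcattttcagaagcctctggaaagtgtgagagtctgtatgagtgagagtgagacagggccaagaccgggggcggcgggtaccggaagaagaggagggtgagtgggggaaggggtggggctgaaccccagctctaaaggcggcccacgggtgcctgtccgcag
FASLG: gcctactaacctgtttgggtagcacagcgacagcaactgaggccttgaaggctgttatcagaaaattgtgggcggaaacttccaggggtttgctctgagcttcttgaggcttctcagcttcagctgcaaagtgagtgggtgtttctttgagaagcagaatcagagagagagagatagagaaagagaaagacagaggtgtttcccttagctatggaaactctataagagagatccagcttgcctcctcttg
TNFSF9: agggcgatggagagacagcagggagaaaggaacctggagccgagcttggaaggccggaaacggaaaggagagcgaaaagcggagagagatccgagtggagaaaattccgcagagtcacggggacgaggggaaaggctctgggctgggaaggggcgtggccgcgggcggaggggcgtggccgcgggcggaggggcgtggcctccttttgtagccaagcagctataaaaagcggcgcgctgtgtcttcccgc

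The TNFRSF9 window held a RUNX match at -80 to -75, an NF-kB match directly after it at -74 to -65 and an AP-1 match at -44 to -38, counted from the start. The TNFSF14 window held an AP-1 match at -168 to -162, and the FASLG and TNFSF9 windows held none of the 5 motifs. Among the 37 upstream windows that the table gives for 28 members, AP-1 letters occurred in 6 windows (16.2%, against 6.57% of all 35116 windows), those of CD27, FAS, TNFRSF9, TNFSF14 and TNFSF15. NF-kB letters occurred in 3 windows (8.11%, against 1.73%), those of LTB and TNFRSF9. RUNX letters were in 6 windows (16.2%, against 11.0%), GATA letters in 5 (13.5%, against 9.17%) and EGR letters in none (0.720% of all windows). These shares are descriptions of small numbers of windows, some of which overlap because a gene has several starts.

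The libraries held between 12258890 counts (6 h, replicate 1) and 35548737 counts (72 h, replicate 2) over all sites, and values are given as CPM, the count of a site relative to the TMM-scaled library size. The starts of 6 of 7 erythroid marker genes lay in a site that both 0 h libraries called as a peak, and their summed level was 219 and 217 CPM at 0 h, 147 and 163 CPM at 6 h and 88.1 and 88.4 CPM at 72 h. Start sites called as peaks in each 0 h library were also found for 2 of 5 T cell, 2 of 4 monocyte and 3 of 4 epithelial markers, while CD3G, CD2, CD14, CDH1 and the erythroid gene KLF1 had no site at their starts. From 0 to 72 h, the sum of the monocyte markers went from 52.1 and 69.3 to 35.4 and 41.7 CPM. Within it LYZ and CD68 fell, while CSF1R rose from 5.07 and 3.73 to 14.4 and 16.6 CPM. The epithelial sum went from 70.1 and 90.6 to 61.7 and 67.2 CPM, and the T cell sum from 28.9 and 41.3 to 35.6 and 42.0 CPM. Among the epithelial markers EPCAM and KRT18 fell, while KRT8 rose from 16.9 and 25.4 to 33.7 and 37.4 CPM. Among the T cell markers LCK rose from 7.41 and 10.6 to 15.4 and 20.4 CPM, while the 0 and 72 h libraries overlapped at CD3D and CD3E. A fall was common at starts, since 67.4% of all tested sites within 1 kb of a RefSeq start were lower at 72 h. The scaling matters for every direction given below. Over all tested sites, the median log2 change from 0 to 72 h was 0.29 with TMM, 0.11 with relative log expression (RLE) factors, 0.79 with total counts, -0.04 with loess offsets and 1.26 with TMM factors taken from sites with a peak in all 6 libraries (here called shared-peak scaling), and the median of member sites moved with it (0.17, -0.02, 0.67, 0.03 and 1.13). Between 6 and 72 h the median of member sites was -0.10 with TMM and 0.57 with shared-peak scaling. Changes given below without another scaling are TMM results. Losses near the size of these shifts, at starts or elsewhere, need not be called with shared-peak scaling.

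Across the family, accessibility changed at most sites by 72 h, in both directions. At 6 h against 0 h, edgeR's quasi-likelihood test called 95 member sites higher (25.6%) and 55 lower (14.8%) at an adjusted p under 0.05, against 23.4% higher and 16.8% lower among all 177759 tested sites. At 72 h against 0 h it called 151 higher (40.7%) and 116 lower (31.3%), against 38.2% and 29.2% of all sites. Between 6 and 72 h, 85 were higher at 72 h (22.9%) and 91 lower (24.5%), against 22.1% and 20.9% of all sites. The family as a whole therefore stood close to the background in every comparison, and its median log2 fold change at 72 h, 0.17, lay below that of all sites, 0.29. Of the calls at 72 h, 56.6% were in the higher direction with TMM, and this share was 51.7% with RLE, 71.7% with total counts, 51.0% with loess offsets and 85.8% with shared-peak scaling. At 6 h the higher share was 63.3% with TMM and ran from 51.2% (loess offsets) to 83.8% (shared-peak scaling), and between 6 and 72 h it was 48.3% with TMM and ran from 46.1% (RLE) to 87.8% (shared-peak scaling). Calls made in 1 direction under all 5 scalings numbered 80 higher (21.6%, against 18.3% of all sites) and 23 lower (6.20%, against 8.5%) at 6 h. At 72 h they numbered 119 higher (32.1%, against 28.0%) and 32 lower (8.63%, against 9.39%). Between 6 and 72 h they numbered 64 higher (17.3%, against 15.1%) and 18 lower (4.85%, against 3.41%).

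The comparisons at 6 h and at 72 h share the 0 h libraries, so their calls are not independent of each other. The authors' deposited table also sorts sites into 5 classes, and 295 member sites (79.1%, against 79.2% of all sites) were in its static class. The names of the other 4 classes did not follow the direction of the log2 fold changes in the same table, so they were not read as directions. For example, the authors' deposited table gives the TNFSF8 site peak173358 log2 fold changes of 4.02 and 4.49 under a class named downEarly, and the CD70 site peak80844 values of -1.50 and -2.47 under upLate.

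Calls at ligand sites together were mostly gains and those at receptor sites were split between gains and losses, a difference that was not tested. Among 143 tested sites of 16 ligand genes, 78 were higher at 72 h (54.5%) and 34 lower (23.8%), with a median log2 value of 0.92. Among 228 tested sites of 25 receptor genes, 73 were higher (32.0%) and 82 lower (36.0%), with a median of -0.20. Among all tested sites, 38.2% were higher and 29.2% lower, with a median of 0.29. Ligand sites called higher outnumbered those called lower under each of the 5 scalings, from 67 against 37 (loess offsets) to 98 against 11 (shared-peak scaling). For the receptors the balance turned with the scaling, from 65 higher against 90 lower with loess offsets to 120 higher against 25 lower with shared-peak scaling. TNFSF4 alone supplied 40 of the ligand sites, and without it 53 of 103 ligand sites were higher (51.5%) and 30 lower (29.1%). Counted by gene, 9 of 16 ligand genes and 12 of 25 receptor genes had more sites higher than lower at 72 h. More sites lower than higher were found at 7 ligand genes and 12 receptor genes.

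**Figure D1:**
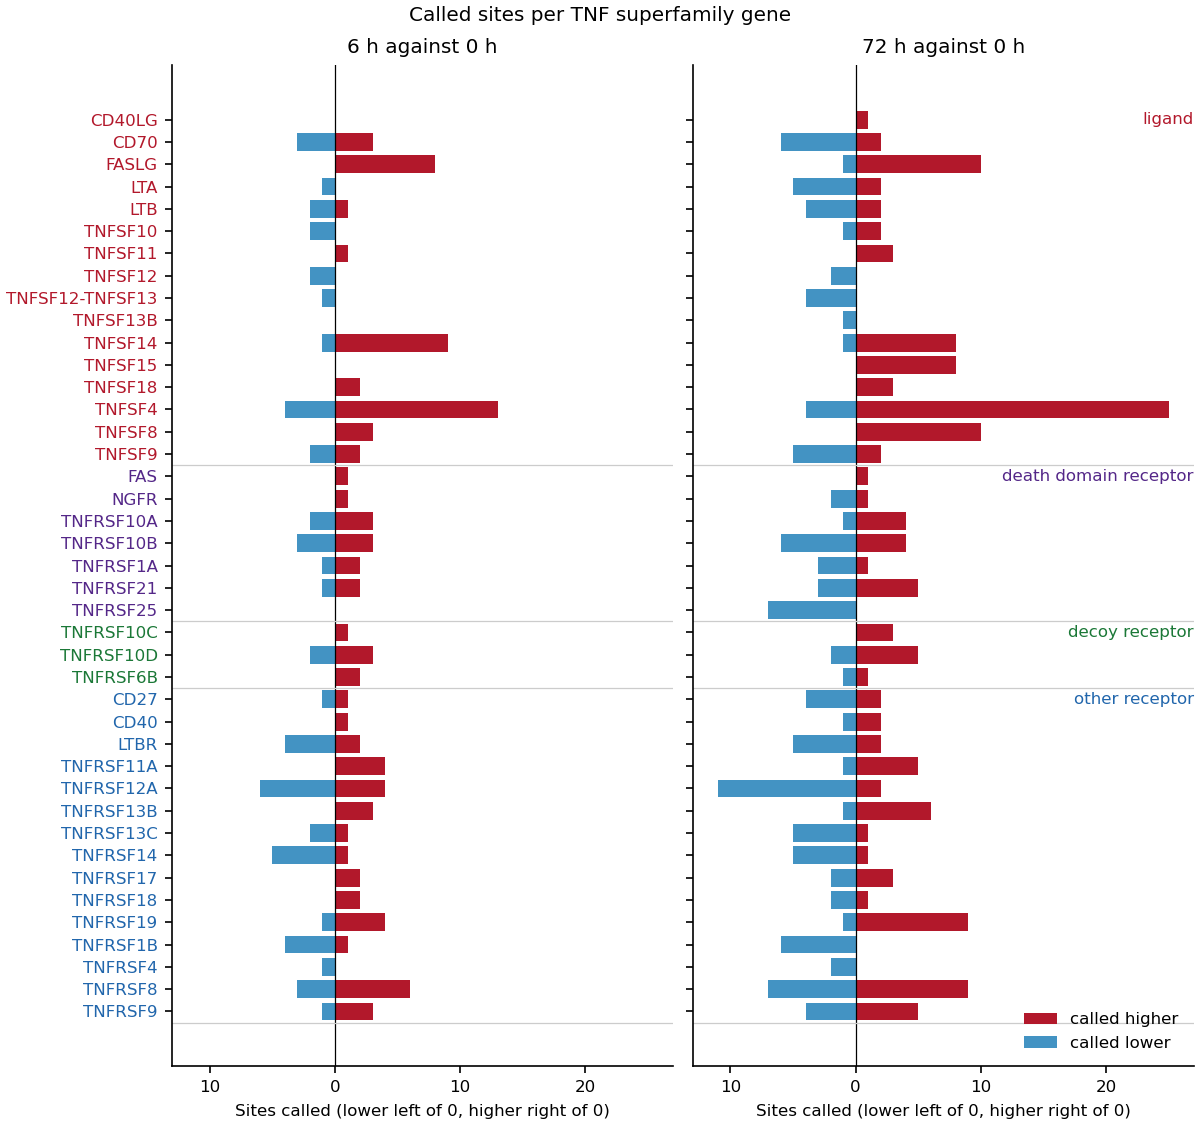
Number of sites called higher (right of 0, red) and lower (left of 0, blue) by edgeR at an adjusted p under 0.05 for each of the 41 genes with a site, at 6 h and at 72 h against 0 h, ordered by role. TNFSF4 had 25 sites higher at 72 h, TNFSF8 had 10 and TNFSF15 had 8, while TNFRSF12A had 11 sites lower. Only 3 of the 16 TNFRSF12A sites have it as the nearest gene.

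**Figure D2:**
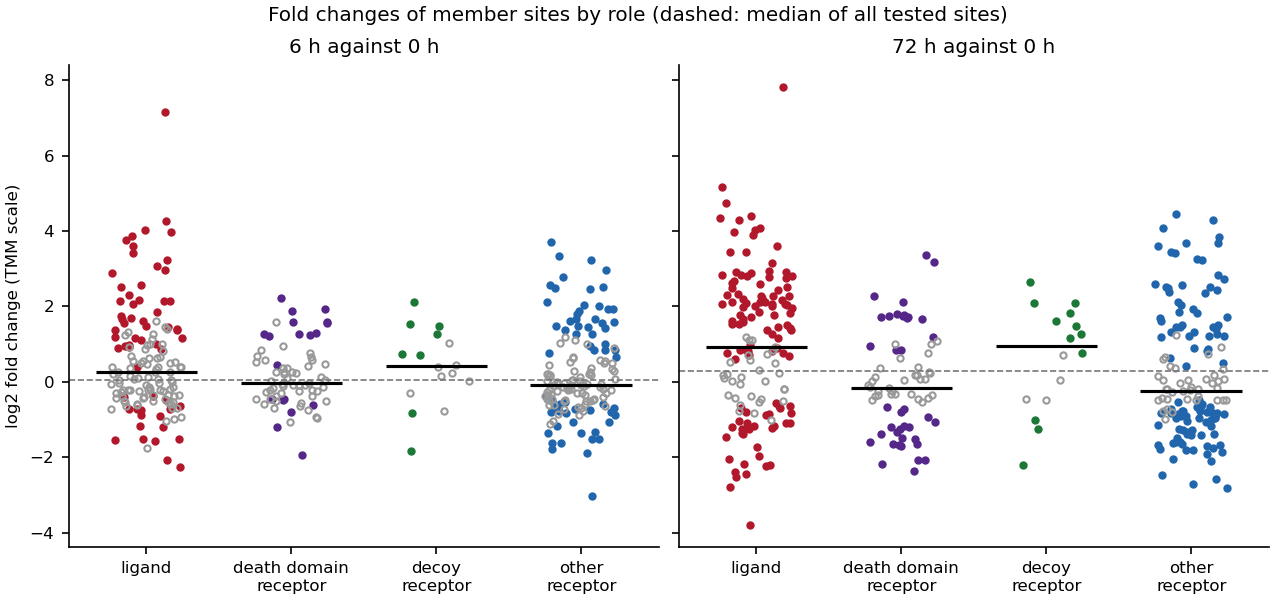
Log2 fold change of each tested site by role of its gene, on the TMM scale. Filled points passed the test, open points did not, black lines are the medians of each role, and dashed lines are the medians of all tested sites (0.05 at 6 h and 0.29 at 72 h). The ligand point above 7 in both panels is a TNFSF11 site without a count at 0 h, whose fitted value is no bound.

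The ligand gene TNFSF14 opened early and then partly closed. TNFSF14 encodes LIGHT, which binds TNFRSF14 and LTBR. Of its 15 sites, 9 were higher at 6 h and 1 was lower, and 7 of the 15 fell between 6 and 72 h. The site over the gene start (chr19:6669862-6670511) measured 0.780 and 1.1 CPM at 0 h, 13.6 and 12.4 CPM at 6 h and 5.62 and 6.65 CPM at 72 h, so the 3 times did not overlap. Its log2 fold change was 3.75 (SE 0.29, adjusted p = 2.3e-09) at 6 h and 2.68 (SE 0.29, adjusted p = 7.7e-08) at 72 h, and it was lower by -1.07 (SE 0.22, adjusted p = 0.00060) between 6 and 72 h. A site inside the gene at chr19:6663360-6664428 followed the same course, with 1.95 and 1.58 CPM at 0 h, 26.0 and 28.6 CPM at 6 h and 8.93 and 7.98 CPM at 72 h. Between 6 and 72 h this site changed by -1.69 on the log2 scale (SE 0.19, adjusted p = 1.1e-06), and it was lower under all 5 scalings. A site at chr19:6686951-6687628, which lies nearer to the complement gene C3, had log2 fold changes of 4.04 at 6 h and 2.23 at 72 h. The only TNFSF14 site that was lower at both times (chr19:6682641-6683145, also nearer to C3 and chosen after its values were seen) went from 9.55 and 4.59 CPM at 0 h to 2.05 and 1.11 CPM at 6 h and 1.04 and 0.991 CPM at 72 h.

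The adjoining ligand genes TNFSF15 and TNFSF8 opened along their whole assigned region by 72 h. TNFSF15 encodes TL1A, the ligand of TNFRSF25, and TNFSF8 encodes CD30 ligand, which binds TNFRSF8. All 18 tested sites of the pair on chromosome 9 were higher at 72 h, and their log2 fold changes ran from 1.78 to 5.17 with a median of 2.91. The count of 18 held under each of the 5 scalings, and DESeq2 called 17 of them. At 6 h 3 sites were called higher, all of them at TNFSF8.

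At TNFSF8, a site inside the gene (chr9:114894653-114895374) measured 0.455 and 0.191 CPM at 0 h, 3.24 and 4.15 CPM at 6 h and 11.4 and 10.9 CPM at 72 h. It rose by 3.61 on the log2 scale at 6 h (SE 0.40, adjusted p = 3.5e-07) and by 5.17 at 72 h (SE 0.37, adjusted p = 4.2e-10). A second site in the gene (chr9:114908769-114909493) was already near its final level at 6 h, with 0.650 and 0.287 CPM at 0 h, 8.53 and 8.64 CPM at 6 h and 11.4 and 12.9 CPM at 72 h. Its step from 6 to 72 h, 0.50, did not pass the test (SE 0.23, adjusted p = 0.081). The third early site sits at the lower-coordinate end of the gene (chr9:114893483-114894281), with log2 fold changes of 3.41 at 6 h and 4.39 at 72 h.

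At TNFSF15 the 8 sites gained accessibility after 6 h. The site at the upper end of the gene (chr9:114805677-114806351) measured 0.975 and 0.478 CPM at 0 h, 0.767 and 0.158 CPM at 6 h and 4.58 and 3.37 CPM at 72 h. The 0 h and 6 h libraries overlapped, and the 72 h libraries lay above both. It rose by 2.5 at 72 h against 0 h (SE 0.45, adjusted p = 5.4e-05) and by 3.49 against 6 h (SE 0.51, adjusted p = 1.5e-05), the latter ranging from 2.41 (without replicate 2 of 6 h) to 4.61 (without replicate 1 of 6 h). A site beyond the lower end of the gene (chr9:114777734-114778337) reached 2.82 and 3.75 CPM at 72 h from 0.130 and 0.239 CPM at 0 h, a log2 fold change of 4.07. All 8 TNFSF15 sites were also higher at 72 h than at 6 h, and so were 8 of the 10 TNFSF8 sites.

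**Figure D3:**
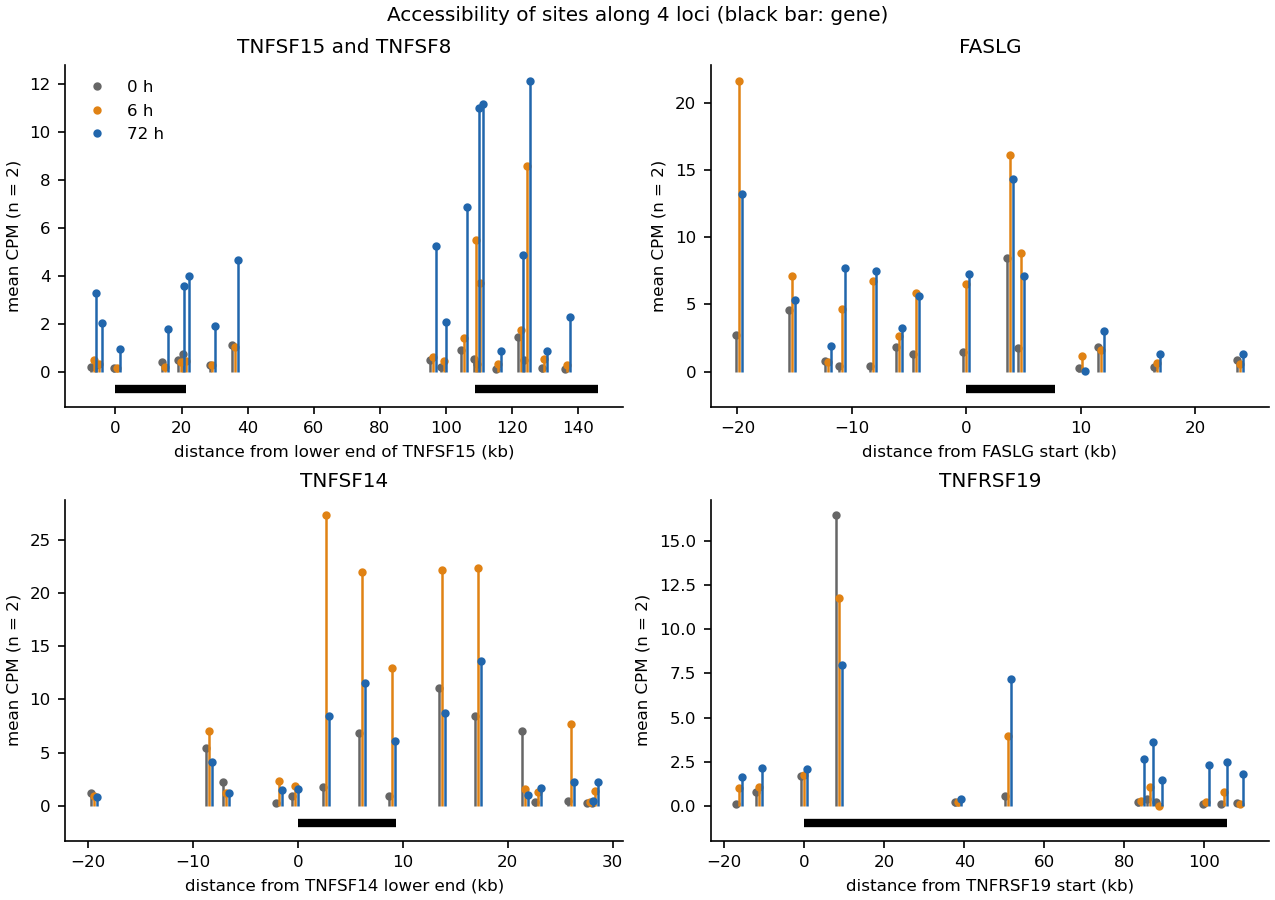
Mean CPM of each site (n = 2 libraries) at 0, 6 and 72 h against distance in kb along 4 loci, with the genes as black bars and the 3 times drawn side by side at each site. TNFSF15 and TNFSF8 were near 0 before treatment and tall at 72 h, TNFSF14 was tallest at 6 h, and FASLG was raised at both times. In TNFRSF19 the tallest site, over a start, shrank while distal sites in the gene grew.

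FASLG, TNFSF18 and TNFSF4 lie next to each other on chromosome 1 and gained accessibility together. FASLG encodes the death ligand that engages FAS, TNFSF18 the ligand of TNFRSF18 and TNFSF4 the ligand OX40L of TNFRSF4. Of their 58 sites, 23 were higher and 4 lower at 6 h, and 38 were higher and 5 lower at 72 h, with a median log2 fold change of 1.43. Higher calls outnumbered lower ones at 72 h under every scaling, with 31 against 9 (loess offsets) as the closest balance.

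The FASLG part of this region responded early. Over the FASLG start, the site (chr1:172658789-172659417) measured 1.62 and 1.29 CPM at 0 h, 6.99 and 6.01 CPM at 6 h and 7.22 and 7.29 CPM at 72 h. Its log2 fold changes were 2.16 at 6 h (SE 0.29, adjusted p = 3.5e-06) and 2.33 at 72 h (SE 0.28, adjusted p = 2.6e-07), and the change from 6 to 72 h was 0.17 (SE 0.24, adjusted p = 0.58). Upstream of the gene, the site at chr1:172650659-172651238 went from 0.130 and 0.717 CPM at 0 h to 6.57 and 6.96 CPM at 6 h and 7.33 and 7.69 CPM at 72 h. A neighbouring site (chr1:172647938-172648529) changed by 3.24 at 6 h, and by 5.11 when replicate 2 of 0 h was left out, and its 0 h libraries measured 0.130 and 0.765 CPM. A distal site at chr1:172638779-172639751 was highest at 6 h, with 2.79 and 2.68 CPM at 0 h, 23.6 and 19.6 CPM at 6 h and 12.9 and 13.5 CPM at 72 h. Altogether 8 of the 14 FASLG sites were higher at 6 h and 10 at 72 h, and 1 was lower at 72 h.

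TNFSF18 and TNFSF4 gained accessibility both by 6 h and after it. At TNFSF18, 2 of 4 sites were higher at 6 h, 3 at 72 h and 3 at 72 h against 6 h. The site at chr1:173062019-173062691 measured 1.04 and 1.39 CPM at 0 h, 2.13 and 3.26 CPM at 6 h and 6.39 and 8.35 CPM at 72 h. Its log2 fold change was 1.19 at 6 h (SE 0.34, adjusted p = 0.0083) and 2.58 at 72 h (SE 0.32, adjusted p = 3.5e-07). TNFSF4, a long gene in RefSeq, had 40 sites, of which 13 were higher at 6 h, 25 at 72 h and 15 at 72 h against 6 h. The site at chr1:173342455-173343203 measured 0.390 and 0.478 CPM at 0 h, 0.938 and 1.01 CPM at 6 h and 6.78 and 6.37 CPM at 72 h. It rose by 3.89 at 72 h (SE 0.36, adjusted p = 9.2e-09), and its 6 h change of 1.16 was not called with any 1 library left out. The TNFSF4 site of highest mean level, inside the gene at chr1:173429587-173430374, did not join the rise. It measured 29.0 and 30.8 CPM at 0 h, 39.6 and 39.4 CPM at 6 h and 19.6 and 20.6 CPM at 72 h, and its 72 h change of -0.57 turned to 0.45 with loess offsets and 0.40 with shared-peak scaling.

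CD70 and TNFSF9, which share a cluster with TNFSF14 on chromosome 19, had more losses than gains at 72 h with TMM (TNFSF9 turned to 2 higher and 1 lower with shared-peak scaling). CD70 is the ligand of CD27, and TNFSF9 encodes 4-1BB ligand, which binds TNFRSF9. At CD70, 3 sites were higher and 3 lower at 6 h, and 2 were higher and 6 lower at 72 h. The site near one end of CD70 (chr19:6580157-6580853) was among those that rose, with 1.62 and 1.53 CPM at 0 h, 7.08 and 10.6 CPM at 6 h and 6.99 and 6.44 CPM at 72 h, log2 fold changes of 2.52 and 2.09. Over the TNFSF9 start, the site (chr19:6530396-6531469) measured 29.8 and 23.9 CPM at 0 h, 24.9 and 25.9 CPM at 6 h and 13.1 and 11.8 CPM at 72 h. Its 0 h and 6 h libraries overlapped and its 72 h libraries lay below both, with a log2 fold change of -1.11 (SE 0.17, adjusted p = 7.6e-06) that was called under 3 of the 5 scalings. Of the 31 sites of the 3 genes, 16 fell between 6 and 72 h, and DESeq2 called 12 of the 31 lower.

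TNFSF10 and TNFSF11 took different courses. TNFSF10 encodes TRAIL, a death ligand, and TNFSF11 encodes RANKL, the ligand of TNFRSF11A that drives osteoclast formation. A site inside TNFSF10 (chr3:172512046-172512914) closed early, from 9.29 and 9.32 CPM at 0 h to 2.64 and 3.58 CPM at 6 h, a log2 fold change of -1.54 (SE 0.25, adjusted p = 4.5e-05). At 72 h it stood at 5.51 and 5.00 CPM, between the other times, with a change of -0.82 that was called under 3 of 5 scalings, was 0.14 with shared-peak scaling and lost its call without replicate 2 of 72 h (adjusted p = 0.058). The site over the TNFSF10 start (chr3:172523105-172523808) measured 2.53 and 4.26 CPM at 0 h, 2.39 and 2.44 CPM at 6 h and 4.27 and 3.47 CPM at 72 h, and was not called in any comparison. At TNFSF11, a site upstream of the gene (chr13:42548593-42549943) measured 0.650 and 2.73 CPM at 0 h, 2.05 and 2.69 CPM at 6 h and 12.2 and 12.5 CPM at 72 h. Its log2 fold change at 72 h was 2.80 (SE 0.35, adjusted p = 4.4e-07), and 4.24 when replicate 2 of 0 h was left out. A weaker TNFSF11 site (chr13:42600884-42601380, chosen after its values were seen) had no count in the 0 h libraries, 26 counts at 6 h and 84 at 72 h. Against a floor of 3 counts over the group, its level after 6 h of PMA was at least 7.26-fold higher, and after 72 h at least 12.5-fold higher. These bounds take the counts after PMA as exact, and the lower 95% limits with counting error in both groups (exact binomial) are 5.50 and 9.98.

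The lymphotoxin locus on chromosome 6 had more losses than gains with TMM, and 10 of its 15 sites lie nearer to another gene. LTA and LTB form the lymphotoxins that signal through LTBR, and TNF lies between them. Of 15 sites, 1 was higher and 3 were lower at 6 h, and 4 were higher and 9 lower at 72 h, a balance that was 5 against 5 with total counts and turned to 6 higher and 1 lower with shared-peak scaling. The strongest LTB site (chr6:31580661-31581413, inside the gene) measured 21.8 and 28.2 CPM at 0 h, 17 and 18.5 CPM at 6 h and 10.1 and 11.2 CPM at 72 h. The 3 times did not overlap, and the log2 fold change at 72 h was -1.24 (SE 0.18, adjusted p = 4.0e-06). The NF-kB letters of the LTB promoter lie at -87 to -78, in a window that none of the LTB sites overlapped.

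The BAFF and APRIL genes and their neighbours gave losses or no call. TNFSF12 encodes TWEAK, TNFSF13 encodes APRIL and TNFSF13B encodes BAFF, a B cell survival factor. Among 8 sites of TNFSF12 and the read-through gene TNFSF12-TNFSF13, 6 were lower at 72 h, and 3 with shared-peak scaling. A site inside TNFSF12 (chr17:7553358-7553726) fell from 2.27 and 2.63 CPM at 0 h to 0.426 and 0.664 CPM at 6 h and 0.155 and 0.189 CPM at 72 h, a log2 fold change of -3.80 at 72 h (SE 0.49, adjusted p = 6.5e-07) that was called under all 5 scalings. No library had a peak there. The site at the end shared by TNFSF13 and the read-through gene (chr17:7560588-7562352) also overlaps SENP3. It measured 26.6 and 28.2 CPM at 0 h, 19.4 and 23.3 CPM at 6 h and 10.6 and 10.9 CPM at 72 h, with a change of -1.35 at 72 h (SE 0.17, adjusted p = 5.7e-07). Over the TNFSF13B start the site (chr13:108269567-108270604) had 5.59 and 3.97 CPM at 0 h and 2.72 and 3.75 CPM at 72 h, and its change of -0.55 was not called (adjusted p = 0.087). CD40LG, the ligand of CD40, had 1 site (chrX:136639308-136639979), with 0.520 and 0.478 CPM at 0 h, 1.36 and 0.759 CPM at 6 h and 3.11 and 3.70 CPM at 72 h, a log2 fold change of 2.77 at 72 h (SE 0.42, adjusted p = 5.7e-06).

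**Figure D4:**
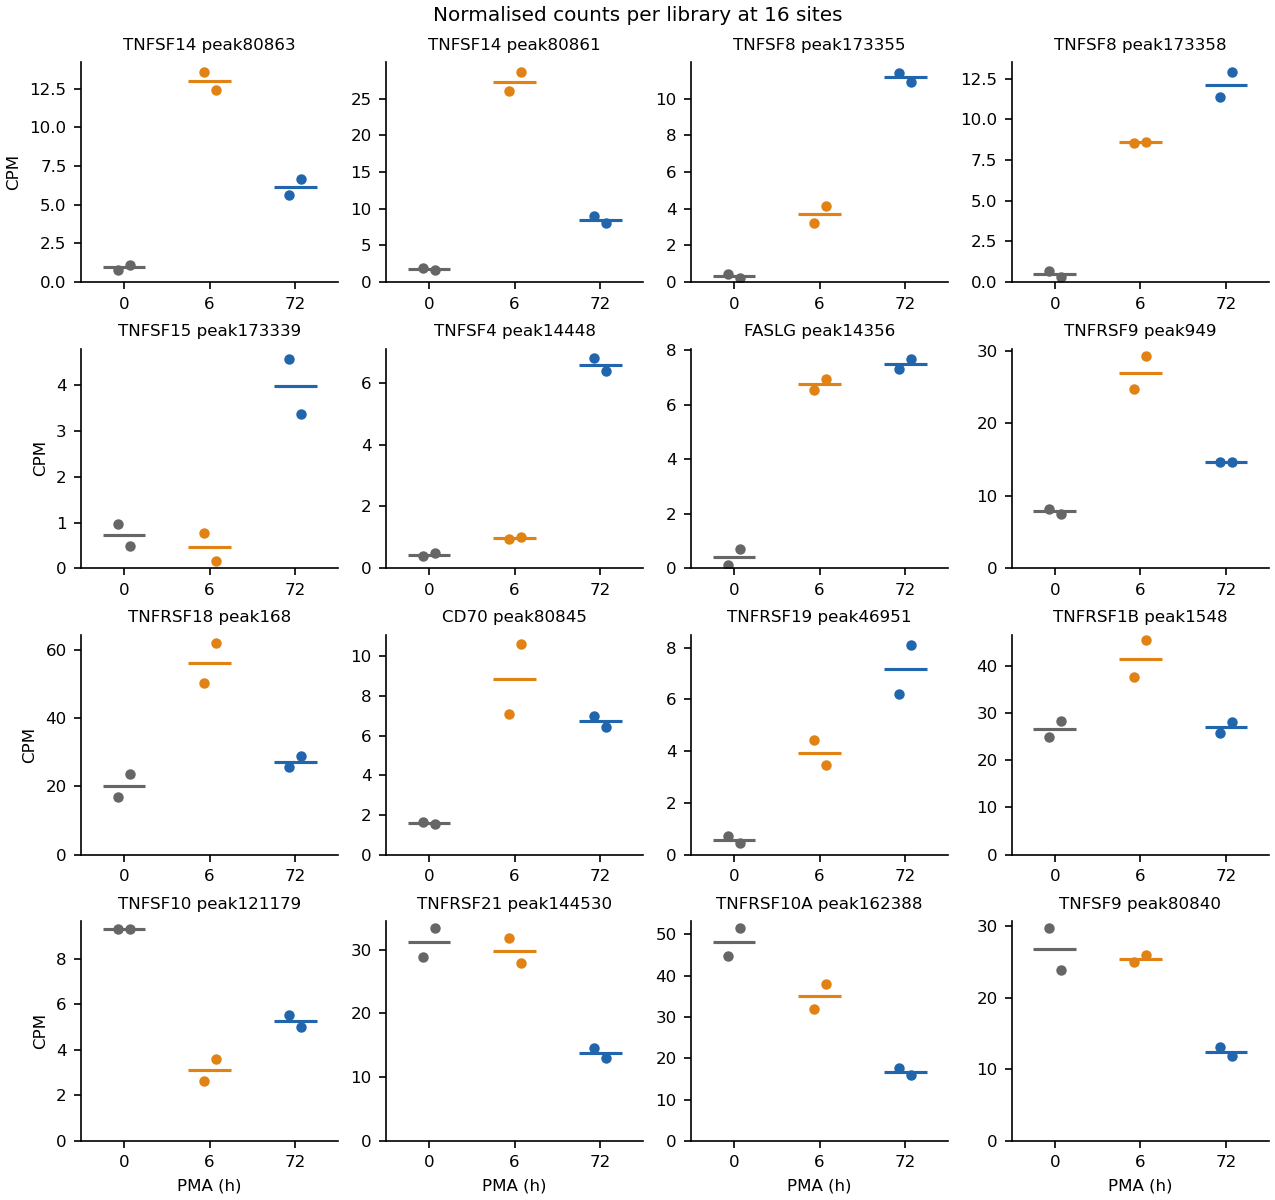
CPM of each library (points) and group mean (bars, n = 2) at 0, 6 and 72 h of PMA for 16 member sites, each panel with its own axis from 0 and titled by gene and by the authors' name of the site. The TNFSF14 and TNFRSF9 start sites (peak80863 and peak949) peak at 6 h, the TNFSF8, TNFSF15 and TNFSF4 sites are highest at 72 h, and the TNFRSF21, TNFRSF10A and TNFSF9 sites are lowest at 72 h.

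Among the receptors with a death domain, 69 sites were tested for 7 genes. At 6 h 12 were higher (17.4%) and 7 lower (10.1%), against 23.4% and 16.8% of all tested sites. At 72 h 16 were higher (23.2%) and 22 lower (31.9%), against 38.2% and 29.2% of all tested sites. The balance at 72 h ran from 15 higher and 28 lower with loess offsets to 36 higher and 7 lower with shared-peak scaling. The site at one end of TNFRSF10A, a TRAIL receptor (chr8:23224208-23225729), measured 44.8 and 51.4 CPM at 0 h, 31.9 and 38.0 CPM at 6 h and 17.6 and 15.9 CPM at 72 h. The 3 times did not overlap, and the log2 fold change at 72 h was -1.52 (SE 0.16, adjusted p = 3.6e-08), lower under all 5 scalings. Yet 4 other TNFRSF10A sites were higher at 72 h. TNFRSF10B, the other signalling TRAIL receptor, had 17 sites, 4 higher and 6 lower at 72 h. One end of TNFRSF10B (chr8:23019147-23020331, also overlapping RHOBTB2) stayed at 9.16 and 11.8, 9.47 and 10.3, and 8.98 and 9.82 CPM at the 3 times. The opposite end (chr8:23068733-23069484, chosen after its values were seen) fell from 27.8 and 20.4 CPM at 0 h and 20.1 and 18.8 CPM at 6 h to 7.84 and 7.46 CPM at 72 h, a log2 fold change of -1.65 (SE 0.19, adjusted p = 1.4e-07).

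FAS, the receptor of FASLG, had a start site (chr10:88990370-88991768, also overlapping ACTA2) with 4.03 and 4.06 CPM at 0 h, 6.91 and 5.44 CPM at 6 h and 4.30 and 4.79 CPM at 72 h. The 6 h libraries lay above the others, but the change of 0.59 was not called (SE 0.26, adjusted p = 0.075). The other FAS site, downstream of the gene (chr10:89031930-89032824, chosen after its values were seen), rose from 0.975 and 1.15 CPM to 4.43 and 3.54 CPM at 6 h and 3.21 and 4.08 CPM at 72 h, log2 fold changes of 1.87 and 1.77. The 6 h change of the FAS start was called with total counts (0.72, adjusted p = 0.030) and with shared-peak scaling (0.88, adjusted p = 0.0092), so the call at the start depends on the scaling.

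TNFRSF21, known as death receptor 6, had losses at its strongest sites and gains at weaker sites inside the gene. The start site (chr6:47309020-47310322) measured 28.9 and 33.5 CPM at 0 h, 31.8 and 27.9 CPM at 6 h and 14.5 and 13.0 CPM at 72 h, a log2 fold change of -1.18 (SE 0.16, adjusted p = 1.9e-06) that was called under 3 of 5 scalings. Of the 12 TNFRSF21 sites, 5 were higher at 72 h, all of them inside the gene, and 3 were lower (4 and 4 with loess offsets). One of the lower sites, inside the gene at chr6:47242247-47243070, was the strongest of all 12, with 40.9 and 54.3 CPM at 0 h, 28.3 and 33.7 CPM at 6 h and 14.1 and 17.3 CPM at 72 h, a change of -1.60 (SE 0.17, adjusted p = 6.3e-08) that was called under all 5 scalings. TNFRSF25, the receptor of TNFSF15, had 13 sites, of which 7 were lower at 72 h with TMM and between 2 (shared-peak scaling) and 10 (loess offsets) with other scalings. Its strongest site (chr1:6439919-6440930, nearer to ESPN) measured 39.8 and 37.7 CPM at 0 h, 40.8 and 37.7 CPM at 6 h and 16.4 and 14.1 CPM at 72 h, a change of -1.34 (SE 0.15, adjusted p = 1.6e-07). Of the 13 sites, 12 lie nearer to another gene than to TNFRSF25.

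TNFRSF1A, the main TNF receptor, and NGFR, the neurotrophin receptor p75, are the remaining members of the group. The strongest TNFRSF1A site, inside the gene (chr12:6335428-6337045), measured 38.7 and 45.1 CPM at 0 h, 37.1 and 54.2 CPM at 6 h and 22.5 and 29.8 CPM at 72 h, and its 72 h change of -0.68 turned to 0.52 with loess offsets and lost its call without replicate 1 of 72 h (adjusted p = 0.056). At NGFR, the site at one end (chr17:49494887-49495557) went from 6.24 and 6.17 CPM to 3.18 and 2.01 CPM at 72 h (log2 fold change -1.26, SE 0.27, adjusted p = 0.00035). The site at the other end (chr17:49515027-49515822) went the other way, from 4.22 and 6.12 CPM to 9.14 and 9.51 CPM, a change of 0.84 that lost its call without replicate 1 of 0 h (adjusted p = 0.053).

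The decoy receptors TNFRSF10C and TNFRSF10D, which bind TRAIL without an active death domain, and TNFRSF6B, a soluble decoy for FASLG, TNFSF14 and TNFSF15, had 16 tested sites. They split into 6 higher (37.5%) and 2 lower (12.5%) at 6 h, against 23.4% and 16.8% of all tested sites. At 72 h 9 were higher (56.25%) and 3 lower (18.75%), against 38.2% and 29.2% of all tested sites. Higher calls were ahead at 72 h under every scaling (7 against 3 with loess offsets). These are few sites, and the difference from all sites was not tested. The strongest TNFRSF10D site (chr8:23176626-23177560) measured 7.80 and 8.18 CPM at 0 h, 18.0 and 20.6 CPM at 6 h and 17.6 and 18.3 CPM at 72 h. It rose by 1.28 at 6 h (SE 0.19, adjusted p = 1.3e-05) and 1.16 at 72 h (SE 0.19, adjusted p = 1.2e-05). The strongest TNFRSF10C site (chr8:23092125-23093042) had 3.51 and 3.54 CPM at 0 h, 8.53 and 10.9 CPM at 6 h and 11.1 and 8.73 CPM at 72 h. From 6 to 72 h their changes were -0.11 and 0.01, and neither was called. The site of highest level at TNFRSF6B (chr20:63706687-63708567) lies nearer to ARFRP1 and changed by -1.02 at 72 h, which was called under 3 of 5 scalings.

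The remaining 15 receptor genes, which signal mainly through TRAF adaptors, had 143 tested sites. At 6 h 35 were higher (24.5%) and 28 lower (19.6%), against 23.4% and 16.8% of all tested sites. At 72 h 48 were higher (33.6%) and 57 lower (39.9%), against 38.2% and 29.2% of all tested sites. The balance at 72 h was 73 higher and 17 lower with shared-peak scaling. TNFRSF9 (4-1BB), a costimulatory receptor whose promoter is shown above, gained accessibility over its start at 6 h. The start site (chr1:7940624-7941865) measured 8.19 and 7.55 CPM at 0 h, 24.7 and 29.3 CPM at 6 h and 14.7 and 14.7 CPM at 72 h. The 3 times did not overlap, and the log2 fold changes were 1.79 at 6 h (SE 0.19, adjusted p = 1.4e-07), 0.90 at 72 h (SE 0.19, adjusted p = 0.00021) and -0.88 between 6 and 72 h (SE 0.17, adjusted p = 0.00036). A site 7969 bases upstream (chr1:7948808-7949453) rose from 0.650 and 0.717 CPM to 5.63 and 7.12 CPM at 6 h and stayed there, with 6.99 and 6.11 CPM at 72 h.

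TNFRSF18 (GITR) resembled TNFRSF9 at its main site (chr1:1207845-1209363), which lies 1253 bases from the start and measured 16.8 and 23.6 CPM at 0 h, 50.2 and 62.2 CPM at 6 h and 25.7 and 28.8 CPM at 72 h. It rose by 1.47 at 6 h (SE 0.17, adjusted p = 7.1e-07) and then changed by -1.05 between 6 and 72 h (SE 0.17, adjusted p = 4.4e-05). Its 72 h value against 0 h, 0.43 (adjusted p = 0.033), was not called without replicate 1 of 0 h (0.19, adjusted p = 0.36) or without either 72 h replicate (adjusted p = 0.055 and 0.19). A weak site at one end of its neighbour TNFRSF4 (chr1:1213783-1213992) had 1.88 and 1.43 CPM at 0 h and 0.337 and 0.519 CPM at 72 h, a change of -1.92 (SE 0.45, adjusted p = 0.00071), with no peak in any library.

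TNFRSF8 (CD30) and TNFRSF1B, the TNF receptor of lymphocytes, lie side by side on chromosome 1. TNFRSF8 had 24 sites, of which 6 were higher and 3 lower at 6 h and 9 higher and 7 lower at 72 h (8 and 8 with loess offsets). A site inside TNFRSF8 (chr1:12067723-12068502, chosen after its values were seen) measured 5.46 and 7.17 CPM at 0 h, 26.0 and 43.7 CPM at 6 h and 10.3 and 12.8 CPM at 72 h. Its log2 fold change was 2.47 at 6 h (SE 0.23, adjusted p = 3.4e-08) and -1.61 from 6 to 72 h (SE 0.22, adjusted p = 6.1e-06). Another inside the gene (chr1:12087981-12088599) rose in steps, from 0.325 and 0.717 CPM to 1.79 and 2.53 CPM at 6 h and 6.37 and 7.62 CPM at 72 h. At TNFRSF1B, adjoining sites at the start moved apart at 6 h. The site over the start (chr1:12166755-12167266) went from 10.5 and 12.8 CPM to 8.10 and 6.74 CPM, a change of -0.67, while the larger site 413 bases from the start (chr1:12167404-12168962) went from 25.0 and 28.4 CPM to 37.5 and 45.5 CPM, a change of 0.64. The latter was back at 25.8 and 28.2 CPM at 72 h, and its 6 h call was lost without replicate 2 of 6 h (0.44, adjusted p = 0.11). The former lost its 6 h call in 2 of the 6 fits that left out a library.

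TNFRSF19, a receptor known from hair follicle and gut stem cells, had a loss at a start and gains within the gene. Over one TNFRSF19 start, the site (chr13:23578552-23579732) measured 15 and 17.9 CPM at 0 h, 13.0 and 10.6 CPM at 6 h and 8.78 and 7.17 CPM at 72 h, a log2 fold change of -1.05 at 72 h (SE 0.20, adjusted p = 0.00011). A weaker site over another TNFRSF19 start (chr13:23570037-23570630) had 1.88 and 1.48 CPM at 0 h and 2.36 and 1.84 CPM at 72 h. Its change of 0.33 was not called (adjusted p = 0.41), and only the 72 h libraries had a peak there. Of 12 TNFRSF19 sites, 9 were higher at 72 h and 1 was lower, and 8 were higher at 72 h than at 6 h. One of them, inside the gene (chr13:23621057-23621834), had 0.715 and 0.430 CPM at 0 h, 4.43 and 3.45 CPM at 6 h and 6.21 and 8.12 CPM at 72 h, a change of 3.68 (SE 0.35, adjusted p = 1.4e-08). TNFRSF11A (RANK), the receptor of TNFSF11, had 5 of 6 sites higher at 72 h, and the start site was not among them. A site in the TNFRSF11A gene (chr18:62389541-62390362, chosen after its values were seen) went from 1.82 and 1.77 CPM to 4.78 and 5.16 CPM at 6 h and 9.47 and 10.9 CPM at 72 h, and the start site (chr18:62324846-62325823) changed by -0.92 at 72 h, a value that was 0.04 with shared-peak scaling. TNFRSF13B (TACI), a receptor of BAFF and APRIL, had 6 of 7 sites higher at 72 h and 1 lower, and its site of highest mean level (chr17:16988100-16988893) had 3.12 and 4.06 CPM at 0 h and 9.35 and 10.5 CPM at 72 h.

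Some receptors had more losses than gains. TNFRSF12A, the TWEAK receptor Fn14, had 16 sites, with 4 higher and 6 lower at 6 h, 2 higher and 11 lower at 72 h, and 11 falling between 6 and 72 h. Only 3 of the 16 sites have TNFRSF12A as the nearest gene. With shared-peak scaling the 72 h calls came to 5 in each direction. The site at one end of TNFRSF12A (chr16:3020090-3020644) measured 18.3 and 18.1 CPM at 0 h, 15.3 and 15.7 CPM at 6 h and 7.09 and 6.87 CPM at 72 h, a change of -1.38 (SE 0.19, adjusted p = 1.3e-06) that held under all 5 scalings. A flanking site of lower level (chr16:3007024-3007536, nearer to GREP1 and chosen after its values were seen) fell in steps, from 17.9 and 16.5 CPM to 5.71 and 5.41 CPM and 2.80 and 2.95 CPM. The tallest TNFRSF12A site (chr16:3023186-3024630, nearer to HCFC1R1) rose from 55.8 and 60.2 CPM to 103 and 95.2 CPM at 6 h and stood at 31.2 and 39.5 CPM at 72 h, where its change of -0.71 turned to 0.88 with loess offsets.

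On the TMM scale LTBR, the lymphotoxin receptor, lost start accessibility early, with 21.1 and 26.7 CPM at 0 h, 12.1 and 14.7 CPM at 6 h and 11.4 and 10.1 CPM at 72 h (chr12:6383659-6384831). Its log2 fold changes were -0.83 at 6 h (SE 0.19, adjusted p = 0.0015) and -1.15 at 72 h (SE 0.19, adjusted p = 1.5e-05). The 72 h loss is little larger than the rise of the member median with shared-peak scaling, from 0.17 to 1.13. TNFRSF14, the LIGHT receptor HVEM, behaved likewise at its strongest site (chr1:2545852-2547711), which measured 83.8 and 89.9 CPM at 0 h, 38.9 and 38.1 CPM at 6 h and 31.6 and 34.9 CPM at 72 h. That site changed by -1.18 at 6 h (SE 0.14, adjusted p = 7.4e-07) and by -1.39 at 72 h (SE 0.14, adjusted p = 2.3e-08), the latter 0.06 under another of the 5 scalings. With TMM, LTBR and TNFRSF14 were thus lower at these sites at 6 h, when the TNFSF14 start site was most open. Over all their sites at 6 h, LTBR had 2 higher and 4 lower, and TNFRSF14 had 1 higher and 5 lower. The decoy TNFRSF6B, which also binds TNFSF14, had 2 higher and 0 lower, though all its sites lie nearer to another gene. A link between ligand and receptor sites was not tested. TNFRSF13C, the BAFF receptor, changed at one end of the gene (chr22:41925890-41926812) by -0.76 at 6 h and -1.34 at 72 h, from 10.1 and 9.32 CPM to 6.22 and 5.35 CPM and 3.60 and 4.06 CPM. The strongest site of TNFRSF17 (BCMA) (chr16:11975705-11977088, nearer to NPIPB2) changed by -0.91 at 72 h, which was 0.06 with shared-peak scaling.

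CD27 and CD40 are costimulatory receptors of lymphocytes. A site upstream of CD27 (chr12:6426795-6427377) measured 0.325 and 0.382 CPM at 0 h, 1.96 and 4.87 CPM at 6 h and 4.61 and 4.11 CPM at 72 h, log2 fold changes of 3.33 and 3.59. Of the 8 CD27 sites, 2 were higher and 4 lower at 72 h, but 2 higher and 1 lower with total counts or shared-peak scaling. Of the 5 CD40 sites, 2 were higher and 1 lower at 72 h, and 2 each way with RLE or loess offsets. A CD40 flanking site (chr20:46111098-46111772) measured 2.27 and 0.717 CPM at 0 h, 1.02 and 1.04 CPM at 6 h and 4.09 and 4.74 CPM at 72 h. It rose by 1.62 at 72 h (SE 0.38, adjusted p = 0.00076). The CD40 site at one gene end (chr20:46117880-46118585) went from 10.5 and 6.93 CPM to 6.32 and 5.19 CPM at 72 h, a change of -0.59 (adjusted p = 0.033). That change was 0.37 with shared-peak scaling and lost its call without replicate 1 of 0 h (-0.28) or without either 72 h replicate.

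With TMM, sites at gene starts were more often called lower than higher at 72 h, and sites within genes more often higher than lower. Of 38 tested sites within 1000 bases of a member's start (or of either end where the promoter table gives no start), 7 were higher at 72 h and 20 lower (52.6%), with a median log2 fold change of -0.63. Of 142 sites inside the genes, 78 were higher (54.9%) and 25 lower, with a median of 0.93, and the 191 flanking sites had 66 higher and 71 lower. The same split was present in all sites: among 17630 tested sites within 1 kb of any RefSeq start, 13.7% were higher at 72 h and 67.4% lower, with a median of -1.13, and among the 160129 others 40.9% were higher and 25.0% lower. The set of all sites used starts alone, and the 2 sets were not tested against each other. With shared-peak scaling the start sites of the family had 15 higher and 4 lower calls, whereas the sites inside genes had more higher than lower calls under every scaling (65 against 34 with loess offsets as the closest).

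The distance rule also took in sites of other genes. For 94 of the tested sites another protein-coding gene lay nearer than the member, with 18 higher calls and 48 lower ones (51.1%) at 72 h. For the 277 sites with the member as nearest gene, 133 were higher (48.0%) and 68 lower. Restricted in this way, 73 of 122 ligand sites were higher (59.8%) and 22 lower (18.0%). Of 155 receptor sites, 60 were higher (38.7%) and 46 lower (29.7%), against 38.2% and 29.2% of all tested sites. Without the sites nearer to another gene, receptor gains thus outnumbered receptor losses with TMM.

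The genes that carry the receptors' signal, 28 genes from TRADD, FADD and the TRAF adaptors to caspase 8 and the ubiquitin ligases and deubiquitinases of the pathway, had 314 tested sites. At 6 h 70 were higher (22.3%, against 23.4% of all sites) and 63 lower (20.1%, against 16.8%). At 72 h 93 were higher (29.6%, against 38.2%) and 123 lower (39.2%, against 29.2%). Between 6 and 72 h 38 were higher (12.1%, against 22.1%) and 102 lower (32.5%, against 20.9%). The balance at 72 h turned to 153 higher and 52 lower with shared-peak scaling. Losses dominated at TRADD, which links TNFRSF1A to downstream kinases, with 6 of 7 sites lower at 72 h, at CASP8, with 6 of 7 lower, and at BID, a caspase 8 substrate, with 7 of 11 lower. TRAF1, an adaptor that is itself a known NF-kB target, had 8 of 16 sites higher and 5 lower. A site inside TRAF1 (chr9:120924618-120925397) rose by 3.33 at 72 h (SE 0.34, adjusted p = 3.2e-08), and one inside CYLD (chr16:50771238-50771822), a deubiquitinase, by 3.98 (SE 0.59, adjusted p = 4.2e-06). MAP3K7, the gene of the kinase TAK1, had 3 sites higher and 5 lower of 13, with a site inside the gene (chr6:90545286-90545981) at 4.58 (SE 0.39, adjusted p = 2.6e-09) and a flanking site (chr6:90597174-90597503) at -2.55 (SE 0.47, adjusted p = 6.7e-05). A site near TNFAIP3 (chr6:137851172-137851774), the gene of the inhibitor A20, changed by -2.99 (SE 0.33, adjusted p = 8.2e-08), with mean levels of 5.03 CPM at 0 h, 1.86 CPM at 6 h and 0.630 CPM at 72 h.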

How the data were processed

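The authors deposited read counts per site for 6 libraries in 1 table, which also holds their log2 fold changes and adjusted p-values, and a peak list per library whose −log10 q-values follow the narrowPeak layout. The deposited counts were whole numbers and were used as raw counts. Trim Galore 0.4.3, BWA 0.7.17, SAMtools 1.9, deepTools 3.0.1, MACS2, bedtools 2.26, DESeq and the build hg38 are named in the submitters' processing notes, without roles, and how the site list was made and whether read ends were shifted is not given in the sources used here.

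Counts were tested with edgeR 4.0.16 in R 4.3.3 (TMM, default low-count filter with a minimum of 10 counts, quasi-likelihood test, the 3 time groups fitted over all 6 libraries). The filter removed 3376 sites. Every adjusted p in the text is from this test with Benjamini-Hochberg adjustment over all 177759 tested sites, and a site was called at an adjusted p under 0.05. Other scalings, DESeq2 1.42.0, loess offsets from limma 3.58.1, no filter, a stricter threshold, a reach of 5000 bases, member-nearest sites, a replicate block and leaving out each library were tried. Fixed floors of 3 counts cover counting error only.

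Coordinates are 1-based, and genes come from RefSeq GRCh38.p14. Of the members, 28 had a start in the promoter table, and for the others either gene end was used. Members and lists were chosen with earlier results of these data known. Sites were named by rule: the site nearest each start within 1000 bases, up to 15 called sites per comparison with the largest fold among those with a mean of at least 1 CPM and no overlap between groups, and each member's site of highest mean. A further 8 sites were chosen after their values were seen. Motifs were searched in the 250 upstream bases alone, so transcribed bases were left out. The result of 1 marker list is not reported here.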

Additional observations from a re-analysis of the deposited data

How the results depend on the processing

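The counts of member sites called moved by over 1.5 times under these settings. With a reach of 5000 bases, 63 were higher and 32 lower at 6 h, 98 and 62 at 72 h, and 55 and 49 between 6 and 72 h. With total counts the lower calls were 34, 72 and 59 in that order. With shared-peak scaling they were 23, 36 and 23, and 165 were higher between 6 and 72 h. At a stricter threshold (adjusted p below 0.01, log2 change beyond 1 in size) the lower calls were 18, 76 and 42. With only member-nearest sites they were 36, 68 and 49. Fewer sites are counted under the short reach, the stricter threshold and the nearest-gene rule. For the scalings the cause was not tested.

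Leaving out 1 library gave 74 to 94 sites higher and 38 to 53 lower at 6 h, 127 to 152 higher and 92 to 118 lower at 72 h, and 66 to 98 higher and 56 to 100 lower between 6 and 72 h, the 56 without replicate 2 of 72 h. Calls turned to the opposite direction for LTA (the site nearest DDX39B, 0.34 between 6 and 72 h), TNFRSF12A (0.88 at 72 h), TNFRSF1A (0.52) and TNFSF4 (0.45), each at its strongest site with loess offsets, and for TNFSF4 also with shared-peak scaling (0.40). The other changes of sign given above for single named sites were not called in both fits.

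Deviations of same-numbered libraries from their group means correlated at 0.082 (0 and 6 h), 0.053 (0 and 72 h) and 0.085 (6 and 72 h). Counting error at weak sites lowers such values, so they cannot show whether same-numbered libraries share a culture or batch. With the replicate block, 97 sites were higher and 57 lower at 6 h, 153 and 119 at 72 h, and 87 and 95 between 6 and 72 h. Of the comparisons of named sites, 285 kept direction and side of the threshold with DESeq2, 10 lost and 2 gained a call. With 2 libraries a time and weak sites below 1 CPM, single-site folds depend on 1 library where stated.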

Other observations

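A TNFSF4 site within the gene (chr1:173379414-173380789), chosen after its values were seen, measured 2.34 and 3.49 CPM at 0 h, 5.46 and 6.04 CPM at 6 h and 18.4 and 23.7 CPM at 72 h. The 3 times did not overlap, and its log2 fold change at 72 h was 2.83 (SE 0.24, adjusted p = 3.1e-09).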
